A study of Mus musculus with 8 samples.

Results

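Pericytes (PCs) and vascular smooth muscle cells (SMCs), together called mural cells here, were examined in single-cell libraries of mouse dorsal skin. A barcode was taken as a mural cell when UMIs of at least 3 of the 9 genes Rgs5, Myh11, Notch3, Kcnj8, Abcc9, Cnn1, Higd1b, Rgs4 and Synpo2 were found, with no UMI of Ptprc or Pdgfra and fewer than 5 UMIs of Krt14. The members were thus chosen by their own counts of these genes, and those counts are given as a description only. Of 26231 barcodes, 11118 passed the filter of 500 to 4000 genes, at most 20000 UMIs (unique molecular identifiers, 1 per captured RNA molecule) and at most 10% mitochondrial UMIs, and 76 of them were mural cells.

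All libraries came from female BALB/c mice aged 14 to 16 weeks, and each library was treated as 1 mouse. Of these, 4 libraries carry the label PBMCsec, the secretome of irradiated human peripheral blood mononuclear cells, and 4 the label vehicle. The question was whether PBMCsec changed the skin cells relative to vehicle. The labels give no time point, wound status or control solution, so libraries 1 to 4 of a group were treated as alike. The paper describes injected scars taken at the end of treatment or after a further wait, and topical biopsies pooled by group. Which of these the libraries are could not be told from the labels. Skin was dissociated enzymatically, and cells negative for DAPI, a dye that enters dead cells, were sorted. Total UMIs lay between 18578561 and 37880651 in PBMCsec libraries and between 14753926 and 33333619 in vehicle libraries.

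Mural cells wrap the endothelial tube of small vessels. SMCs form a contractile layer around arterioles and larger vessels, and PCs sit along capillaries and venules inside the basement membrane that they share with the endothelium. Endothelial PDGF-B recruits both through the receptor encoded by Pdgfrb, contact with endothelial Notch ligands keeps them differentiated through Notch3, and vessel tone is set by actin and myosin contraction, which signals of constrictor receptors through G proteins drive and ATP-sensitive potassium channels restrain.

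The 9 rule genes cover these functions. Rgs5 and Rgs4 encode regulators that shorten G protein signals, Kcnj8 and Abcc9 the pore and regulatory subunits of an ATP-sensitive potassium channel, and Higd1b a mitochondrial protein known as a PC marker. Myh11, smooth muscle myosin heavy chain, Cnn1, calponin, and Synpo2, an actin-binding protein, belong to the contractile apparatus. Rgs5 lies at chr1:169655501-169695813, Myh11 at chr16:14194535-14291372 and Kcnj8 at chr6:142564837-142571614 (GRCm38, whole genes).

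Rgs5 was found in 94.7% of the 76 cells, Notch3 in 82.9%, Synpo2 in 77.6%, Myh11 in 72.4%, Rgs4 in 69.7%, Abcc9 in 68.4%, Higd1b in 59.2%, Kcnj8 in 51.3% and Cnn1 in 10.5%. Rgs5 was found in 0.331% of leukocytes, cells in which it should be absent. After each cell was thinned to 2000 UMIs, Rgs5 was found in 90.9% of mural cells and 0.223% of leukocytes. Median depth was 4824 UMIs per mural cell and 3815 per leukocyte. Of the 76 members, 8 had exactly 3 rule genes and 68 had 4 or more, and 17 cells with 2 rule genes lay just outside. Those 17 cells had a pooled Acta2 level of 304 CPM (UMIs of the gene per 1000000 UMIs), the members with 3 rule genes 4467 CPM, and those with 4 or more 3728 CPM.

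Genes the rule did not use described the same cells. Acta2, smooth muscle actin, stood at 3835 CPM in mural cells, 19.1 in endothelial cells (ECs) and 193 in fibroblasts (FBs). Des, which encodes the muscle filament desmin, stood at 670 CPM in mural cells and 1.28 in each of ECs and FBs. Pdgfrb was at 987 CPM in mural cells, 0 in ECs and 159 in FBs. Gucy1a1, a subunit of the nitric oxide receptor guanylate cyclase, was at 773 CPM in mural cells and 54.8 in ECs. Among the 60 genes with the largest ratio of mural cells to all other filtered cells, 8 were rule genes. The list also held Gm13889 at 2096 CPM against 3.12 in other cells and 22.96 in ECs. Tinagl1 stood at 855 against 5.91 and 226 in ECs, and Sncg at 710 against 4.88 and 86.7 in ECs.

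**Figure D1:**
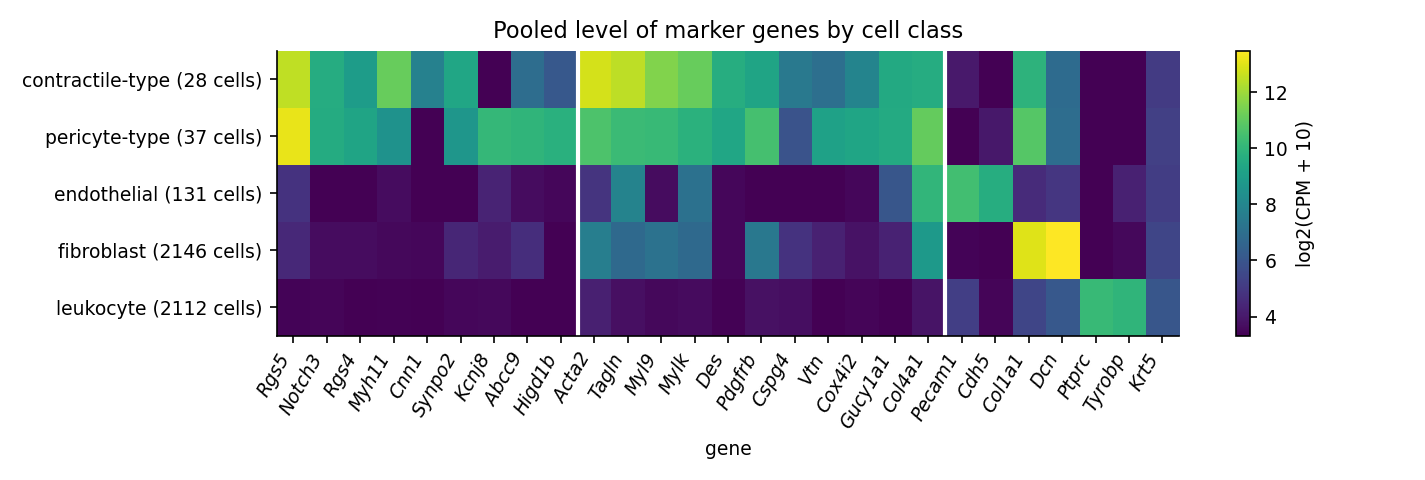
Pooled level of marker genes (log2 of CPM + 10, colour) in contractile-type and pericyte-type mural cells, ECs, FBs and leukocytes. The left block holds the 9 rule genes, the middle block other mural genes and the right block markers of other cells. Acta2 and Des were high in both mural types and Pecam1 was near 0.

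Markers of other cell types were checked against the label. Of 8 endothelial markers, Tie1, Kdr and Cldn5 had no UMI in any member, and the summed level of the list was 150 CPM against 6934 in ECs. Flt1, a VEGF receptor, was its most abundant gene at 132 CPM and was found in 34.2% of members, whereas Pecam1 was found in 1.32%. No member met the rule for ECs, at least 3 of these 8 markers. Of 8 leukocyte markers, 7 had no UMI (Ptprc by rule), and Cd74 stood at 7.48 CPM. Of the Schwann cell markers, Cdh19 and Sox10 were at 0. Keratinocyte markers summed to 244 CPM against 14594 in all other cells. Lymphatic endothelial markers summed to 19.9 CPM, dermal sheath and papilla markers to 52.3, and adipocyte and erythrocyte markers to 37.4. Of 7 skeletal muscle markers, Acta1, Myh4 and Tnnt3 were at 0 and Des, which mural cells also express, made up 670 of 683 CPM. In vehicle library 3, however, 1 contractile-type member had 3 UMIs of Pax7 and 1 of Myod1, transcription factors of muscle precursors, beside 21 of Rgs5, and another had 1 UMI of Ckm, muscle creatine kinase.

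FB markers were not at 0. They summed to 7720 CPM in members against 50239 in FBs, led by Col3a1 at 3317 CPM, and Pdgfra was at 0 by rule. In all, 13 members had UMIs of at least 2 of Dcn, Lum, Dpt and Clec3b, 7 of them in PBMCsec and 6 in vehicle libraries. One of them, in PBMCsec library 3, carried 171 Dcn, 107 Col1a1 and 35 Lum UMIs beside 1 Rgs5 UMI. Whether RNA or cells of the FB lineage contributed to the other values was not tested.

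Rgs5 was absent from 4 members, all with Myh11, Cnn1 and Synpo2. In 3 of them, 1 from PBMCsec library 4 and 2 from vehicle library 3, Notch3 and Pdgfrb were absent too, and Actg2, an actin of visceral smooth muscle, had 3, 3 and 6 UMIs. Desmin had 26, 10 and 4 UMIs in the same cells. Itga8, listed with Actg2, Des, Synm and Pgm5 as a marker of non-vascular smooth muscle, had 0, 3 and 6. All contractile-type members, defined below, together held 32 Actg2 UMIs in 10 cells and 33 Itga8 UMIs in 11. Pericyte-type members held 2 and 6 UMIs. The name mural cell is therefore uncertain for these 3 cells, and whether they are vascular or other smooth muscle was not tested.

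The share of mural cells among filtered cells was compared between groups. The PBMCsec libraries 1 to 4 held 12 of 1080, 2 of 529, 17 of 2534 and 10 of 1600 cells, or 1.11%, 0.378%, 0.671% and 0.625%. The vehicle libraries 1 to 4 held 0 of 318, 1 of 409, 10 of 2903 and 24 of 1745 cells, or 0%, 0.244%, 0.344% and 1.38%. The groups overlapped, and vehicle library 4 lay above every PBMCsec library. The 0 in vehicle library 1 allows a share of up to 0.943% (3 counts of the total), and its two-sided exact 95% interval reaches 1.15%. The means were 0.696% ± 0.305 (SD, n = 4) and 0.491% ± 0.607 (SD, n = 4), a difference smaller than the spread between libraries (exact two-sided permutation test, p = 0.514; the smallest p this design allows is 0.0286). Vehicle library 4 held 24 of the 35 members of its group. Without it the difference grew from 0.21 to 0.50 percentage points (exact two-sided permutation test, p = 0.0571, the smallest p that 4 against 3 libraries allow). That p follows from which library was left out, since every other vehicle share lay below all PBMCsec shares, and nothing is concluded from it. Without vehicle library 1 the difference shrank to 0.041. In libraries 3 and 4 alone the difference turned to -0.21 percentage points. The paper removed cells above 5% mitochondrial counts, a stricter limit than the 10% used here. At or under 5% there were 39 of the 76 members. They numbered 7, 1, 13 and 6 in PBMCsec libraries 1 to 4 and 0, 0, 4 and 8 in vehicle libraries 1 to 4.

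**Figure D2:**
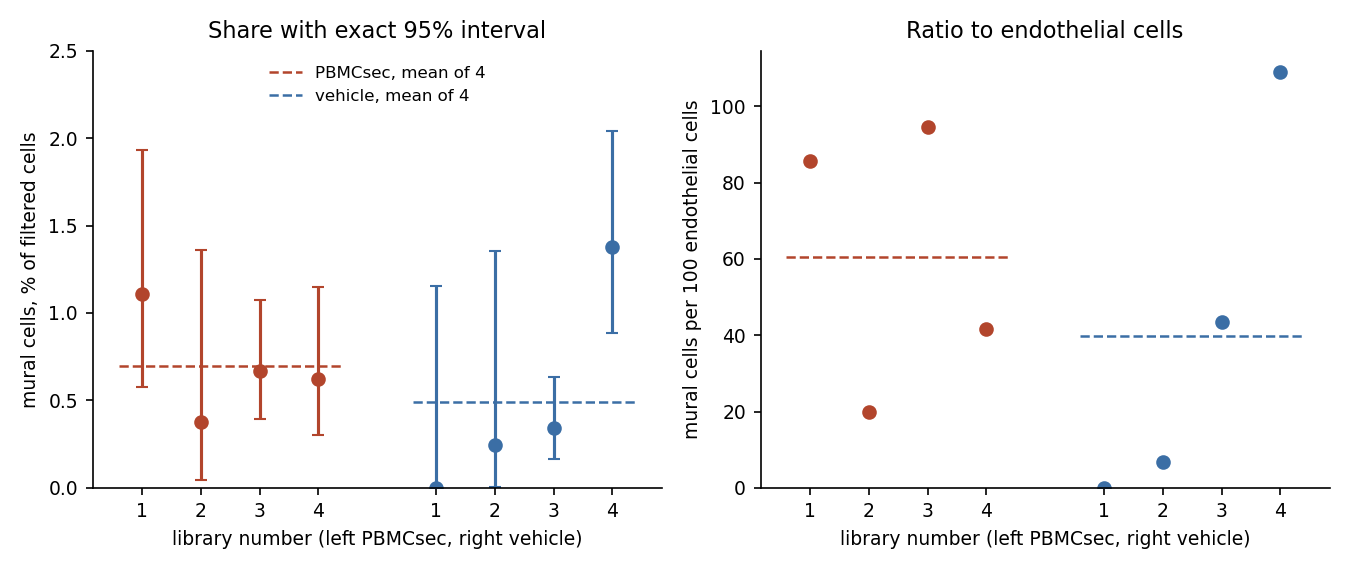
Left, mural cells as a percentage of filtered cells in each library with exact (Clopper-Pearson) 95% binomial intervals, which cover counting error only. Right, mural cells per 100 ECs in each library. Dashed lines are group means of 4 libraries, and the groups overlap in both panels, from 0% to 1.38% in vehicle and from 0.378% to 1.11% in PBMCsec.

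Endothelial cells offered a second denominator, since both cell types come from vessels. There were 85.7, 20, 94.4 and 41.7 mural cells per 100 ECs in PBMCsec libraries 1 to 4 and 0, 6.67, 43.5 and 109 in vehicle libraries 1 to 4. Means were 60.5 ± 35.5 and 39.8 ± 49.99 (SD, n = 4 each), and the groups overlapped (exact two-sided permutation test, p = 0.571). Each ratio rests on 5 to 24 ECs. The difference of 20.6 became 43.7 without vehicle library 4 and 7.38 without vehicle library 1. In libraries 3 and 4 alone the difference turned to -8.23.

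Members were next split by the rule genes themselves. A cell with more of Myh11, Cnn1 and Synpo2 than of Kcnj8, Abcc9 and Higd1b was called contractile-type (28 cells), a cell with more of the latter pericyte-type (37 cells), and 11 cells were tied. Median depth was 5851 UMIs in contractile-type, 4261 in pericyte-type and 5926 in ECs. The contractile-type share was 41.7%, 47.1% and 30% in PBMCsec libraries 1, 3 and 4 and 50% and 20.8% in vehicle libraries 3 and 4, the libraries with at least 5 members. Means were 39.6% ± 8.72 (SD, n = 3) and 35.4% ± 20.6 (SD, n = 2), and the vehicle values enclosed all PBMCsec values. The share is described without a test, since the types were read from rule genes. The sign of this difference changed without vehicle library 4 (-10.4 percentage points).

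Contractile genes outside the rule followed the split, given as a description because the types were read from the same cells. Of 18 contractile genes outside the rule with at least 50 CPM in either type, 18 were higher in contractile-type cells, with a median log2 ratio of 1.45, where 1809 of 4472 genes were higher and the median was -0.16. A gene can pass this limit through one type alone. At 50 CPM or more over all members, 17 of 17 contractile genes were higher in contractile-type cells, as were 1496 of 3588 genes. The summed level of the 18 genes was higher in contractile-type cells in 5 of the 5 libraries with cells of both types, by the least in vehicle library 3 (37807 against 28079 CPM). Acta2 stood at 7173 CPM against 1582, with the same direction in all 5. Tagln, transgelin, stood at 5641 against 1201, but at 4933 against 5215 in vehicle library 3. Pln, phospholamban, which restrains the calcium pump of the sarcoplasmic reticulum, stood at 507 against 28.1, and 10 contractile-type cells but 1 pericyte-type cell held a UMI of it. Mylk, the kinase that starts smooth muscle contraction, stood at 2184 against 881, but in PBMCsec library 3 it was 1398 in contractile-type and 1414 in pericyte-type cells.

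Myl9, the regulatory light chain that Mylk phosphorylates, stood at 2962 CPM in contractile-type and 1139 in pericyte-type cells. Its promoter is shown because the contractile genes were higher together in one type, and many of them are known targets of serum response factor, which binds the CArG box. In RefSeq promoter windows (GRCm38.p6, 250 bases before to 50 after each start), 1.63% of 32851 windows held a CArG box on either strand, as did 2 of 21 windows of the contractile list (Myl9 and Myl6; 18 of its 21 genes matched) and 0 of 13 windows of the PC list (11 of its 20 genes matched). The stretch of the Myl9 promoter around it, at chr2:156775253-156775362 on the plus strand, has the box in capitals, with its last base 152 bases before the start. A match is a description of letters and not a shown binding site.
Myl9: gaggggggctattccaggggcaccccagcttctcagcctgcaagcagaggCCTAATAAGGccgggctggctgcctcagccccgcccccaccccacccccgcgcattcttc

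Of 15 PC genes outside the rule, 10 were higher in pericyte-type and 5 in contractile-type cells, where 2663 of all 4472 genes were higher in pericyte-type cells, and their median log2 ratio was -0.71. With the limit set over all members, 9 of 14 were higher in pericyte-type and 5 in contractile-type cells, with a median of -0.45. The summed level of the 15 genes was higher in pericyte-type cells in 4 of 5 libraries, and in vehicle library 4 it was 8247 CPM against 8671 in contractile-type cells. Pdgfrb stood at 1420 CPM in pericyte-type and 591 in contractile-type cells and was higher in the former in 5 of 5 libraries. Vtn, vitronectin, stood at 544 against 121 and Cox4i2, an oxygen-regulated subunit of cytochrome c oxidase, at 623 against 229. Both ran the other way in vehicle library 3, where Vtn was at 0 and 131 CPM and Cox4i2 at 80.2 and 306. Tbx2, a transcription factor, was among those higher in contractile-type cells, at 314 against 72.9. Cspg4, which encodes the NG2 proteoglycan used to label PCs, was at 163 CPM in contractile-type and 50.5 in pericyte-type cells. In PBMCsec library 3 it was at 57.1 and 80.8.

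**Figure D3:**
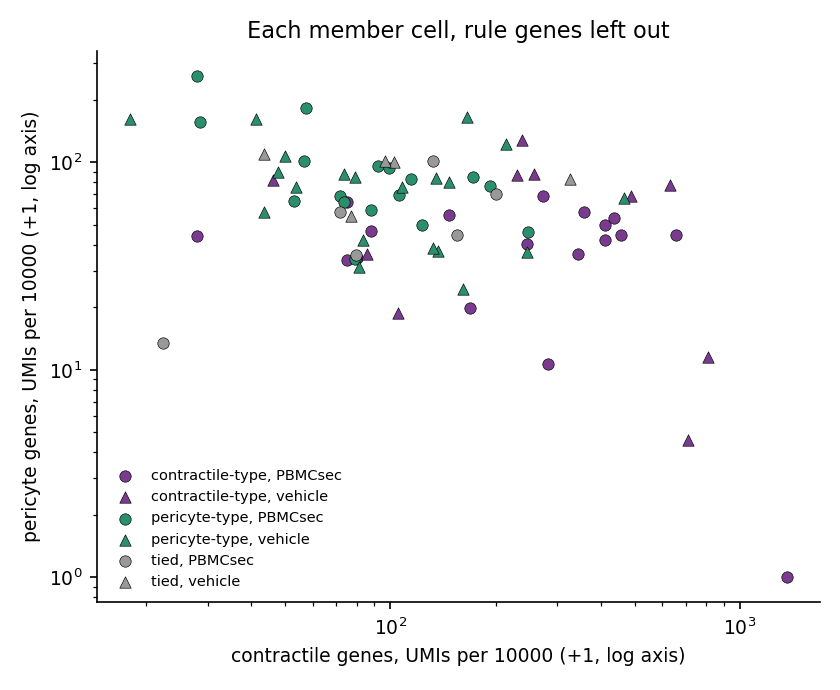
Each of the 76 members by its UMIs of 18 contractile genes (x) and of 15 PC genes (y), rule genes left out, per 10000 UMIs on log axes after adding 1. Colour gives the type and shape the group. Contractile-type cells extend to the right, with a median of 264 against 87.2 for pericyte-type cells, and the types overlap in the middle.

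Across the 76 cells the 2 lists ran in opposite directions, with Pearson r = -0.36 and Spearman rho = -0.32. The cells share libraries, and the lists also ran with depth, the PC list with r = -0.38 and rho = -0.35 and the contractile list with r = 0.092 and rho = 0.31. Median UMIs per 10000 of the PC list were 76.2 in pericyte-type, 69.5 in tied and 43.5 in contractile-type cells.

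Of 28 basement membrane and matrix genes, 17 were higher in pericyte-type and 11 in contractile-type cells, a split close to that of all genes (2663 and 1809 of 4472), with a median log2 ratio of -0.41. FB markers differed between the types as well, at a sum of 8316 CPM in pericyte-type and 4284 in contractile-type cells with 6 of 6 genes higher in the former, although the sums were 6880 and 15269 in PBMCsec library 4 and 1444 and 1965 in vehicle library 3. Their part in the matrix values was not tested. Col4a1 and Col4a2, the main chains of basement membrane collagen, stood at 2121 and 1352 CPM in pericyte-type and at 778 and 422 in contractile-type cells, in this order in 4 of 5 libraries. In vehicle library 3 they stood at 802 and 160 against 829 and 699. Sparc, a collagen-binding glycoprotein, stood at 5982 against 1991 and Timp3, an inhibitor of matrix proteases, at 6313 against 1985, both in this order in 5 of 5 libraries. Sparcl1, a relative of Sparc, was the reverse at 3176 against 5804, except in vehicle library 3 (5455 against 4584). Itga1, a collagen receptor subunit, stood at 802 CPM in pericyte-type and 326 in contractile-type cells. Eln, elastin, was low in both types at 50.5 and 90.5 CPM, against 635 in FBs and 198 in ECs.

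Genes of vascular tone separated in part. Of 14 at 50 CPM or more in either type, 10 were higher in contractile-type cells and 4 in pericyte-type cells, but some passed only through contractile-type cells (P2rx1, Kcnmb1 and Ryr2). Of 10 at 50 CPM or more over all members, 6 were higher in contractile-type and 4 in pericyte-type cells. Pde3a, a phosphodiesterase of cyclic nucleotides, stood at 525 CPM in contractile-type and 140 in pericyte-type cells, but at 480 against 642 in vehicle library 3. P2rx1, an ATP-gated channel, had 17 UMIs in 7 contractile-type cells and none in pericyte-type cells. Kcnmb1, a subunit of the calcium-gated potassium channel of smooth muscle, had 10 UMIs in 9 contractile-type cells and 1 UMI in pericyte-type cells. Ednra, the endothelin receptor of mural cells, stood at 314 and 449 CPM, and Notch3 at 772 and 752. Among 23 genes of Notch, PDGF, angiopoietin and TGF-beta signalling, 14 were higher in contractile-type and 9 in pericyte-type cells, and with the limit set over all members 11 and 8 of 19.

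Immediate early and heat shock genes, which enzymatic dissociation is known to induce, were also unequal. Of 20 such genes, 19 were higher in contractile-type cells, and the list summed to 28319 CPM against 10993, with 11040 in ECs and 9033 in FBs. The order held in 4 of 5 libraries. In PBMCsec library 4, with 3 contractile-type and 7 pericyte-type cells, the list summed to 5479 CPM against 19661, while the contractile list there stood at 48904 against 14442. Among those 3 contractile-type cells, 1 had no Rgs5, Notch3 or Pdgfrb UMI. Fos was at 3650 CPM against 1784 and Hspb1, a small heat shock protein, at 2383 against 337. The part of this list in the differences between the types was not tested.

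**Figure D4:**
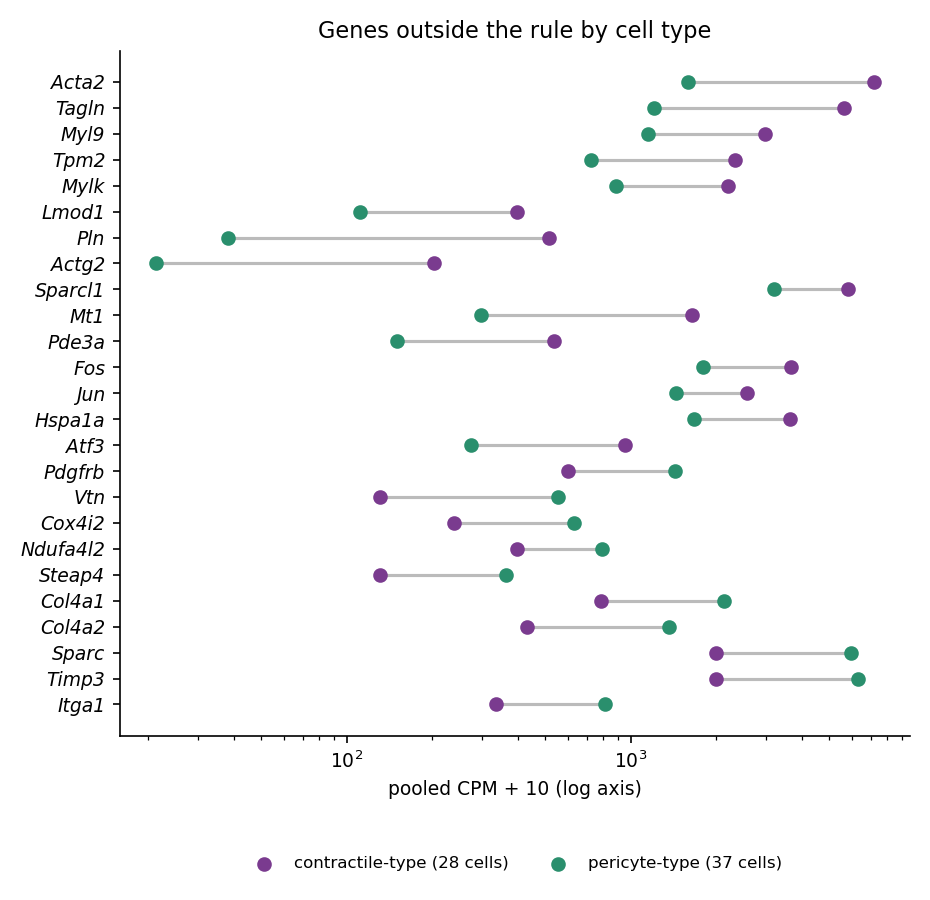
Pooled CPM + 10 (log axis) of genes outside the rule in 28 contractile-type and 37 pericyte-type cells. Grey lines join the values of a gene. Acta2 to Pde3a and Fos to Atf3 lie higher in contractile-type cells, Pdgfrb to Itga1 higher in pericyte-type cells.

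Genes outside the rule with at least 50 CPM in either type were ranked by the pooled ratio over all members of each type. The same direction was required in both libraries with at least 5 cells of each (PBMCsec 3 and vehicle 4). The genes most weighted to contractile-type cells were Pgf, Susd5, Ccrl2, Map3k7cl, 2900026A02Rik, Rasd1, Pln, Sox6, Klf2 and P2rx1. Some, such as Sox6 (18 UMIs) and P2rx1 (17 UMIs), had none in pericyte-type cells and passed the limit through contractile-type cells alone. Pgf, placental growth factor, had 34 UMIs in 11 contractile-type cells and none in pericyte-type cells. The genes most weighted to pericyte-type cells included Cyp26b1, Tnfrsf21, Pamr1, Nfatc2, Man1c1, Cdh2, 1810011H11Rik, Fap and Mmp11. Nfatc2 and Man1c1, for example, had no UMI in contractile-type cells and passed through pericyte-type cells alone. Cyp26b1, which degrades retinoic acid, had 95 UMIs in 19 pericyte-type cells and 2 UMIs in 2 contractile-type cells. Cdh2, the N-cadherin of PC contacts with endothelium, had 25 UMIs in 14 and 2 UMIs in 2.

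Expression after PBMCsec was then compared with vehicle over summed counts of the libraries with at least 10 members, PBMCsec 1, 3 and 4 and vehicle 3 and 4. Of 1736 genes tested, 0 (0%) passed an adjusted p under 0.05 (edgeR quasi-likelihood test, Benjamini-Hochberg adjustment). At an unadjusted p under 0.05 there were 66 higher and 26 lower, DESeq2 called 1 gene (Rgs16, higher) and limma-voom 0. With no filter on low counts edgeR did call genes, most of them higher and Rgs16 among them, as counted under the processing below. Those calls also held the FB markers Dcn, Lum and Clec3b, all higher (log2 fold change 1.89, 6.57 and 1.97). A single cell of PBMCsec library 3 with 1 Rgs5 UMI held 171, 35 and 53 UMIs of these 3 genes. The part of that cell in the calls was not tested. Stricter member rules that left 2 PBMCsec libraries against 1 vehicle library called 124 to 131 genes, and those that leave out members with FB markers or without Rgs5 called 0 and 0 when the limit was lowered to 5 members and all 5 libraries were kept. In 357 genes (20.6%) the 3 PBMCsec values did not overlap the 2 vehicle values.

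The groups overlapped in Rgs5, Myh11 and Kcnj8. Rgs5 stood at 12470, 11167 and 13208 CPM (TMM-scaled, relative to the UMIs of tested genes) in PBMCsec libraries 1, 3 and 4 and at 12885 and 9734 in vehicle libraries 3 and 4, and as a rule gene it is described without a test. Myh11 stood at 1966, 1175 and 1152 against 3790 and 895 and Kcnj8 at 742, 410 and 980 against 172 and 1138. In both genes the 2 vehicle libraries lay on either side of all PBMCsec libraries. Vehicle library 3 was high in Myh11 and low in Kcnj8. Of its 110 Myh11 UMIs, 13 and 25 lay in its 2 members without Rgs5, Notch3 and Pdgfrb UMIs.

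Outside the rule genes, contractile genes had a median log2 fold change of -0.27 over 17 tested genes and PC genes of -0.055 over 12, against -0.01 over all 1736 genes, and none was called in either list. The fold change was above 0 in 3 and below 0 in 14 of these contractile genes, in 5 and 7 of the PC genes, and in 846 and 890 of all genes. The contractile list with its rule genes summed to 19426, 16839 and 29702 CPM of all UMIs in PBMCsec libraries 1, 3 and 4. In vehicle libraries 3 and 4 it summed to 37725 and 16243, on either side of all PBMCsec libraries. The 3 members without Rgs5, Notch3 and Pdgfrb UMIs had the highest levels of the contractile list outside the rule. They stood at 1364 UMIs per 10000 in PBMCsec library 4 and at 810 and 708 in vehicle library 3. Their part in the library values was not tested. Acta2 stood at 3657, 3117 and 8601 CPM after PBMCsec and 9095 and 3658 after vehicle (log2 fold change -0.31 ± 0.50, SE, adjusted p = 0.999, edgeR). Pdgfrb stood at 828, 908 and 1250 against 758 and 2507 (-0.75 ± 0.48, SE, adjusted p = 0.947, edgeR). Higd1b, a rule gene, stood at 1000.4, 481 and 784 against 207 and 576. The groups also overlapped in Notch3, Abcc9, Cnn1, Synpo2, Tagln, Myl9, Mylk, Tpm2, Des, Vtn, Ndufa4l2, Cox4i2 and Steap4.

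Matrix genes had a median log2 fold change of -0.13 over 23 tested genes. Col4a1 stood at 1087, 997 and 2058 CPM after PBMCsec and at 1068 and 3581 after vehicle, and Itgb1, the common integrin beta subunit, overlapped as well. Eln, Ltbp4, a TGF-beta binding protein of elastic fibres, and Cspg4 fell below the filter on low counts. Eln had 5, 0, 4 and 5 UMIs in PBMCsec libraries 1 to 4 and 0, 9 and 1 in vehicle libraries 2 to 4, too few for a comparison at this depth. Outside the rule genes, genes of vascular tone had a median of 0.13 over 6, Notch, PDGF, angiopoietin and TGF-beta genes 0.38 over 13 and oxygen and redox genes 0.22 over 9, again with 0 called.

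Of 18 named genes outside the rule that were tested, the groups did not overlap in 4 (Mcam, Txnip, Itgb5 and Il6), beside 20.6% of all genes, and none of the 4 passed the adjusted test. Il6 did pass with no filter on low counts. Mcam, an adhesion molecule of mural and endothelial cells, stood at 276, 249 and 441 CPM against 517 and 537, and Txnip, an inhibitor of thioredoxin, at 1000.4, 1175 and 637 against 1344 and 1305. The rule gene Rgs4 stood at 1018, 837 and 1029 against 827 and 588. Itgb5, an integrin subunit, stood at 276, 285 and 270 against 138 and 256. Of the smallest unadjusted p-values, Olfr558, an odorant receptor gene also among the 60 most mural genes, stood at 86.2, 89.0 and 98.0 CPM against 448 and 358 (log2 fold change -2.09 ± 0.39, SE, adjusted p = 0.616, edgeR). Smad7, an inhibitor of TGF-beta signalling, stood at 724, 570 and 319 against 138 and 115 (adjusted p = 0.616, and 0.00937 with no filter on low counts, edgeR). Both were named after their values were seen.

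Genes of chemokines, cytokines and the interferon response, listed together, had the highest median log2 fold change of the lists with at least 5 tested genes, 1.25 over 17 genes, with 16 higher and 1 lower and 0 called. Il6, the cytokine interleukin 6, had 41, 36 and 1 UMIs in PBMCsec libraries 1, 3 and 4 and none in vehicle libraries 3 and 4. They came from 3, 3 and 1 cells, and 1 cell held 33 of the 36 UMIs of library 3. Cxcl2, a neutrophil chemokine, had 19, 183 and 0 UMIs against 0 and 0, with 174 of the 183 in 1 cell. Ccl2, a monocyte chemokine, had 78, 230 and 11 UMIs against 10 and 41, with 75 of the 78 in library 1 and 172 of the 230 in library 3 in 1 cell each. Cxcl1 stood at 5295, 3526 and 637 CPM against 620 and 205, and 1 cell held 243 of its 307 UMIs in library 1 and another 121 of 198 in library 3. Cxcl10 and Cxcl9, named after their values were seen, fell below the filter on low counts and were highest in a vehicle library. Cxcl10 had 0, 6 and 0 UMIs against 37 and 0, and Cxcl9 had 0, 2 and 0 against 12 and 0, with all vehicle UMIs of each gene in 1 cell. With no filter on low counts, Il6, Cxcl2, Ccl2 and Cxcl1 were called higher and Cxcl10 lower.

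Il6, Cxcl2, Ccl2 and Cxcl1 were high in PBMCsec libraries 1 and 3 and near vehicle in PBMCsec library 4. Immediate early and heat shock genes summed to 27203, 30719 and 14021 CPM of all UMIs in PBMCsec libraries 1, 3 and 4 and to 24700 and 8860 in vehicle libraries 3 and 4. FB markers summed to 2064, 12675 and 10216 against 1761 and 10603. Of all member UMIs, 1 cell of PBMCsec library 3 held 171 of 211 for Dcn and 54 of 104 for Dpt. The 3 FB markers tested, with the collagens left out, had a median log2 fold change of 1.78, which rests in part on that cell. The 19 immediate early and heat shock genes tested had a median of 0.60, with 16 higher and 3 lower. The part of either list in the chemokine values was not tested.

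**Figure D5:**
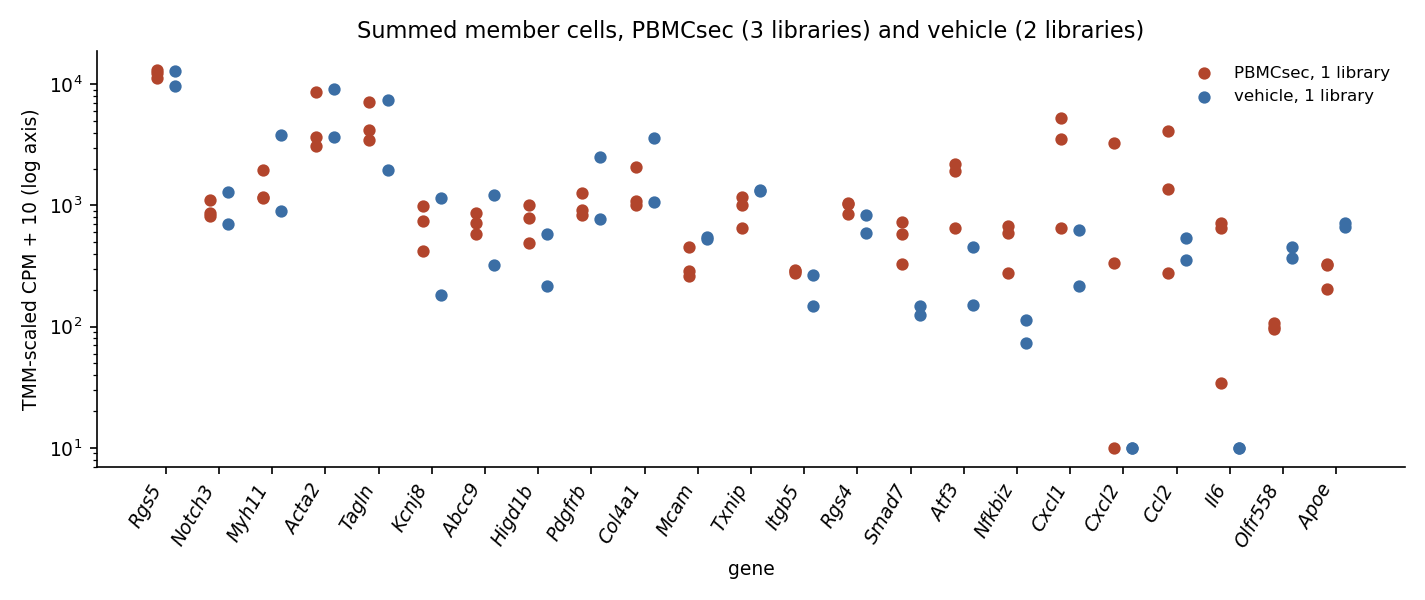
TMM-scaled CPM + 10 (log axis) of summed members in 3 PBMCsec and 2 vehicle libraries, 1 point per library. Rgs5 to Col4a1 overlap between groups. Cxcl1, Ccl2 and Il6 spread widely among PBMCsec libraries. None of these 3 passed the adjusted test with the filter on low counts, and all 3 passed without it.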

How the data were processed

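For each of 8 skin libraries, the deposited values are raw counts, the UMIs of 31053 genes in every barcode that 10x Genomics Cell Ranger kept after alignment to mm10. The submitters' processing notes name version 3.0.2. Groups came from the labels. Members and gene lists were chosen with earlier results of these data known. No doublet caller was run, and 17 barcode sequences of filtered cells, 0 of them members, occurred in more than 1 library. Each library was treated as 1 replicate from 1 mouse. Cells were filtered at 500 to 4000 genes, at most 20000 UMIs and 10% mitochondrial UMIs. Member counts were summed within libraries, and the quasi-likelihood test of edgeR 4.0.16 (R 4.3.3) was run with TMM scaling and filterByExpr, leaving out Gm42418, Gm17056, Gm26917 (1.46% of member UMIs), Col1a1, Col1a2, Col3a1, Krt1, Krt5, Krt10, Krt14 and Krtdap. DESeq2 1.42.0 and limma 3.58.1 were alternatives. The test was checked on simulated counts of 3 against 2 libraries with 1 common dispersion. It recovered 75.3% of 4-fold and 97.6% of 8-fold changes, with 5 false calls among 1563 genes run. Smaller changes were not simulated. Single values were compared by exact permutation over libraries (scipy 1.17.1). Named genes were a fixed list of 30 plus the 10 largest called changes each way whose groups did not overlap, of which there were none. For types, the 10 largest pooled CPM ratios each way (prior 10, at least 50 CPM, same direction in each library with 5 cells of both) were named, except what is not reported here. Summed member counts of tested genes ran from 29118 to 74902 UMIs per library. Coordinates are from GENCODE M21 (GRCm38), promoters from RefSeq.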

Additional observations from a re-analysis of the deposited data

Results flagged for a closer look

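Outside the cells analysed, 38 barcodes met the gene rule but failed the cell filter, against 76 members. Of these, 27 exceeded 10% mitochondrial UMIs, 11 exceeded 4000 genes, 7 exceeded 20000 UMIs and 3 had under 500 genes, and a barcode can fail on several counts. By library they numbered 3, 5, 7 and 3 in PBMCsec 1 to 4 and 4, 4, 4 and 8 in vehicle 1 to 4. Vehicle library 1, with 0 members, held 4 of them. What these barcodes are was not tested.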

How the results depend on the processing

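All values rest on 76 cells in 7 libraries. The sign of the difference turned in libraries 3 and 4 for the share (-0.21 percentage points) and the ratio (-8.23), and for the contractile-type share at a 5% mitochondrial limit (-0.092), after thinning to 2000 UMIs (-8.32) and when libraries were left out 1 at a time (-10.4 to 18.7); the cause was not tested. Leaving libraries out gave 0.041 to 0.50 percentage points for the share and 7.38 to 43.7 for the ratio. With a replicate block the differences were 0.21 for the share and 20.6 for the ratio (p = 0.625 for each, exact sign permutation, where 4 pairs allow no p below 0.125) and 3.11 for the contractile-type share, and 0 genes were called. Whether the numbers pair the libraries could not be told: the labels give only a number, deviations of PBMCsec 3 and vehicle 3 correlated at 0.038 and those of 4 at 0.18 over 1736 genes, and with 2 vehicle libraries the deviations of one mirror those of the other. The count of called genes was 131 (100 higher) with at least 4 markers, which left 2 against 1 libraries and assumes the lone library varies like the others, 62 (59 higher) with no filter on low counts, 1 under DESeq2, and 0 to 5 without 1 library, the 5 without PBMCsec 4. Leaving out members with FB markers gave 130 (95 higher), and leaving out those without Rgs5 gave 124 (98 higher), again with 2 against 1 libraries at the limit of 10 members. After these counts were seen the limit was lowered to 5, which kept all 5 libraries and gave 0 and 0. Within either type, with a limit of 3 cells, it was 0. These were all chosen after seeing the data. The 5% mitochondrial limit, at least 20 members and libraries 1 and 2 left too few libraries for the gene test, and libraries 1 and 2 gave no contractile-type share.

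Among 571 log2 fold changes of 27 named genes under the alternatives, 101 changed sign, none of them of a called gene, and 17 passed the adjusted test (Il6, Ccl2, Col4a1, Pdgfrb and Tagln), all with 2 against 1 libraries, with no low-count filter or without PBMCsec replicate 4. At the limit of 10 members, leaving out members with FB markers gave Acta2 0.26, Itgb1 0.67, Itgb5 -0.055, Kcnj8 -0.70, Myh11 1.07, Mylk 0.70, Ndufa4l2 -0.65, Steap4 -0.44, Synpo2 0.81, Tpm2 0.076 and Vtn -0.58, and leaving out those without Rgs5 gave Itgb1 0.58, Kcnj8 -0.99, Myh11 0.80, Mylk 0.28, Ndufa4l2 -0.78, Steap4 -0.26, Synpo2 0.60 and Vtn -0.59. At least 4 markers gave Acta2 0.13, Itgb1 0.68, Kcnj8 -0.87, Myh11 0.94, Mylk 0.48, Ndufa4l2 -0.63, Steap4 -0.076, Synpo2 0.68 and Vtn -0.38. All libraries with a member gave Acta2 0.48, Cnn1 0.74, Cox4i2 0.035, Itgb5 -0.093, Kcnj8 -0.044 and Myl9 0.47. No upper limits gave Acta2 0.028, Cnn1 1.31, Itgb1 0.00041, Kcnj8 -0.36, Ndufa4l2 -0.019, Synpo2 0.074 and Tpm2 0.25. A 20% mitochondrial limit gave Cnn1 0.011, Cox4i2 0.019, Kcnj8 -0.044, Steap4 -0.12 and Synpo2 0.11. The replicate block gave Cnn1 0.42, Cox4i2 0.34 and Myl9 0.056, libraries 3 and 4 Cnn1 0.37, Cox4i2 0.30, Kcnj8 -0.055 and Myl9 0.11, limma-voom Cnn1 1.09, Itgb1 0.014 and Synpo2 0.13, and no low-count filter Cnn1 0.085, Cox4i2 0.071 and Synpo2 0.12. Pericyte-type cells gave Abcc9 0.25, Ccl2 -2.02, Cox4i2 0.83, Itgb1 0.12, Notch3 0.15, Synpo2 0.11 and Tagln -1.16, contractile-type cells Myl9 0.30, Ndufa4l2 -0.85, Rgs4 -0.048 and Synpo2 0.11, and members with Rgs5 Synpo2 0.44. Leaving libraries out gave Abcc9 -0.74 to 1.22, Acta2 -0.90 to 0.51, Cnn1 -1.41 to 3.02, Col4a1 -1.36 to 0.39, Cox4i2 -0.50 to 0.30, Itgb1 -0.69 to 0.49, Kcnj8 -0.67 to 2.04, Myh11 -1.38 to 0.70, Myl9 -0.95 to 0.54, Mylk -1.30 to 0.22, Ndufa4l2 -0.35 to 1.16, Notch3 -0.47 to 0.44, Pdgfrb -1.31 to 0.41, Rgs5 -0.044 to 0.36, Steap4 -0.22 to 2.47, Synpo2 -0.53 to 0.57, Tagln -0.57 to 1.34, Tpm2 -0.96 to 0.17 and Vtn -0.089 to 1.94.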
